A study of Mus musculus with 29 samples.

Results

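The small subunit of the cytosolic ribosome was followed at the transcript level through 31 genes that encode its proteins, out of 23366 genes counted, in haematopoietic stem and progenitor cells sorted from mouse bone marrow. Members were taken by symbol: Rps followed by a number, with or without a final a or x, together with Rpsa and Fau. Rps3a1, which encodes another protein of the small subunit, falls outside because of its symbol. All mice were C57BL/6, 8 to 12 weeks old, and bone marrow cells negative for lineage markers and positive for cKit and Sca1 were sorted by the surface protein CD150. The 4 genotypes named by the labels were Mysm1-/-Puma+/-, Puma-/-, Mysm1-/-Puma-/- and wild type, which with the 2 cell populations gave 8 groups and 29 libraries. CD150-negative cells had 3 libraries per genotype. CD150-positive cells had 7 Mysm1-/-Puma-/-, 4 Mysm1-/-Puma+/-, 4 wild-type and 2 Puma-/- libraries. No group lacked Mysm1 with both Puma alleles intact, so the comparison of Mysm1-/-Puma+/- with wild type covers the loss of Mysm1 and of 1 Puma allele together; the series' design text states that such mice resemble Mysm1-/- mice. The labels describe the mice as pooled male and female and name no separate animals, so the spread between libraries may be partly technical. They also name no allele and no Cre, so the deletions are described no further than the genotype.

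The small subunit reads the messenger RNA: its head, body and platform are built from 18S ribosomal RNA and a fixed set of proteins, each needed in about one copy per subunit. Most of these proteins are added to the precursor RNA in the nucleolus and are needed for its cleavage. Loss of one copy of several of the genes, RPS19 foremost, causes Diamond-Blackfan anaemia in people, in which blood cell precursors fail and p53 is activated. Mysm1 encodes a deubiquitinase of histone H2A, and Bbc3 encodes Puma, a p53 target that promotes cell death.

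Libraries held 12304713 to 54339749 counted reads, and the 31 members took 2.07% to 3.37% of them. Levels are given as CPM, the reads of a gene relative to the scaled library total (TMM scaling). Reads over the targeted genes could not check the labels in full. Mysm1 was at 103 ± 5.01 CPM (SD, n = 3) in wild-type and 98.8 ± 22.7 (SD, n = 3) in Mysm1-/-Puma+/- CD150-negative libraries, and Bbc3 was at 6.44 ± 1.93 in wild-type and 25.9 ± 3.87 in Mysm1-/-Puma-/- ones. The other pairs did not overlap in Mysm1. CD150-negative Mysm1-/-Puma-/- libraries had 67.1 to 80.9 CPM of Mysm1, against 85.3 to 95.3 in Puma-/- ones. In CD150-positive cells Mysm1 was at 96.0 to 109 CPM in Mysm1-/-Puma+/- and 111 to 126 in wild-type libraries. Mysm1-/-Puma-/- libraries had 66.4 to 90.1 CPM there, against 130 to 132 in Puma-/- ones. The files give whole-gene counts, so reads from the parts of these genes that remain cannot be set apart, and every genotype below is that of the library's label. Cdkn1a, a p53 target, did separate the labels: it was at 11.8 to 36.5 CPM in the 17 libraries labelled Mysm1-/- and at 0.395 to 3.01 CPM in the 12 others. Slamf1, which encodes CD150, was at 0.218 to 2.30 CPM in CD150-negative and 11.0 to 30.4 CPM in CD150-positive libraries. Kit was at 449 to 812 CPM in every library. Ly6a, which encodes Sca1, was at 14.2 to 26.2 CPM in CD150-negative libraries labelled Mysm1-/- and at 6.35 to 10.9 in the other CD150-negative ones. CD150-positive libraries labelled Mysm1-/- had 9.67 to 24.1 CPM of Ly6a, against 6.86 to 11.1 in the others, with overlap. Among CD150-negative libraries, B-lineage markers (7 of 7 matched) summed to 73.2 to 149 CPM in wild-type, 350.3 to 1224 in Mysm1-/-Puma+/-, 152 to 197 in Puma-/- and 152 to 1380.5 in Mysm1-/-Puma-/- libraries. Erythroid markers (9 of 9) summed to 43.9 to 46.7 CPM in wild-type, 7.95 to 40.6 in Mysm1-/-Puma+/-, 41.2 to 81.5 in Puma-/- and 14.4 to 25.5 in Mysm1-/-Puma-/- libraries. Megakaryocyte markers (7 of 7) summed to 38.1 to 44.0, 66.5 to 97.5, 43.9 to 60.1 and 48.1 to 66.4 CPM in the same order. Among CD150-positive libraries, again in this order, B-lineage markers summed to 61.7 to 202, 41.5 to 693, 402 to 725 and 20.7 to 2434 CPM. Erythroid markers there summed to 178 to 341, 7.19 to 210.2, 227 to 241 and 47.98 to 397 CPM, and megakaryocyte markers to 248 to 508, 514 to 1295, 464 to 504 and 397 to 944 CPM. The part of these markers in the results below was not tested. The CD150-positive Mysm1-/-Puma-/- library B5 stood apart with 23654 CPM on Rn45s, the ribosomal RNA precursor, against 3333 to 13599 CPM in the other libraries of its group. Libraries whose names start with P (3 Mysm1-/-Puma-/-) or W (1 wild type) had the lowest summed member level of their groups. The labels do not explain these names.

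Members differed widely in level. Per kilobase of annotated exon, Rps23 led in wild-type CD150-negative cells with 4396 CPM per kb. Rps6, a protein of the body that is phosphorylated when cells grow, was at 2539 CPM per kb, and Rpsa, which sits between head and platform, with 2305 CPM per kb. Most others lay between 305 (Fau, which encodes Rps30 fused to a ubiquitin-like protein) and 1836 CPM per kb (Rps7). Rps15a, at 140.3 CPM per kb, has 5134 bases of annotated exon, far more than its coding part, so its figure is low by construction. Rps27 was nearly unread at 1.51 CPM per kb and 6 to 77 reads per library, and its fold changes below carry wide errors. In wild-type CD150-positive cells Rps23 was at 3839, Rps6 at 2631 and Rpsa at 2281 CPM per kb, in the same order.

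The clearest difference lay between Mysm1-/-Puma-/- and Puma-/- CD150-negative cells, a comparison in which both groups lack Puma and only 1 has Mysm1. Of the 31 members 12 fell, against 0.935% of all 21168 genes tested that were called lower and 1.35% called in either direction (edgeR quasi-likelihood test, Benjamini-Hochberg adjusted over all genes), and no member rose. Rps15, which lies in the head beside the decoding site, fell by most, from 408 ± 23.2 to 203 ± 22.5 CPM (SD, n = 3 each), a log2 change of -1.04 ± 0.14 (SE, adjusted p = 0.00101). Rps10, a head protein mutated in Diamond-Blackfan anaemia, fell to 0.492 times its level, a log2 change of -1.02 ± 0.15 (adjusted p = 0.00174). Rps3, which guards the mRNA entry channel, changed by -0.98 (adjusted p = 0.0036). Among the rest were Rps18, a head protein at the bridge to the large subunit (-0.89), the platform protein Rps14 (-0.86), Rps7 (-0.80), Rps4x (-0.79), Rps2 of the mRNA entry site (-0.73), Rps24 (-0.71) and Rps15a (-0.70), all on the log2 scale. Of the 31, 29 were lower in sign, 15 of them with an unadjusted p under 0.05 (5.99% of all genes). The median of the 31 was -0.32 against 0.03 over all genes, and -0.20 without the Mysm1-/-Puma-/- library B1. With limma-trend on the deposited CPM, 9 of the 12 were called, all 12 were lower, and 8 of the 18 other members in that table were lower, with a median of 0.035 for these 18. In 18 members every Mysm1-/-Puma-/- library was below every Puma-/- library, which held for 8.09% of all genes. With a replicate block by library number, only 1 member was called. The limma-trend and block counts are given without the share of all genes called.

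Library by library, Rps15 stood at 434, 389 and 401 CPM in the Puma-/- and 177, 214 and 218 in the Mysm1-/-Puma-/- CD150-negative libraries. Wild-type libraries had 364, 444 and 427 CPM and Mysm1-/-Puma+/- libraries 263, 299.97 and 274 CPM of Rps15. So the 6 libraries with Mysm1 were the highest, and the Mysm1-/-Puma-/- libraries the lowest, with no overlap. Rps10 was at 257, 331 and 290.0 CPM in wild-type, 350.0, 283 and 286 in Puma-/-, 193, 226 and 210.3 in Mysm1-/-Puma+/- and 138, 162 and 164 in Mysm1-/-Puma-/- libraries, the same order without overlap between the last 2 groups and the first 2. Rps3 stood at 1086, 1427 and 1168 CPM in wild-type and 1394, 1140.3 and 1269.7 in Puma-/- libraries. Without Mysm1 it stood at 989, 1042 and 911 CPM with 1 Puma allele and at 566, 694 and 724 CPM with none. For Rps3 the Mysm1-/-Puma-/- libraries were all lowest, and the Mysm1-/-Puma+/- libraries lay just below the wild-type ones. Rps15a, a Diamond-Blackfan gene of the body, was at 645, 807 and 709 CPM in wild-type, 734, 651 and 737 in Puma-/-, 696, 685 and 589.9 in Mysm1-/-Puma+/- and 393, 445 and 501 in Mysm1-/-Puma-/- libraries. Here wild-type and Mysm1-/-Puma+/- libraries overlapped, and only the Mysm1-/-Puma-/- group stood apart.

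**Figure D1:**
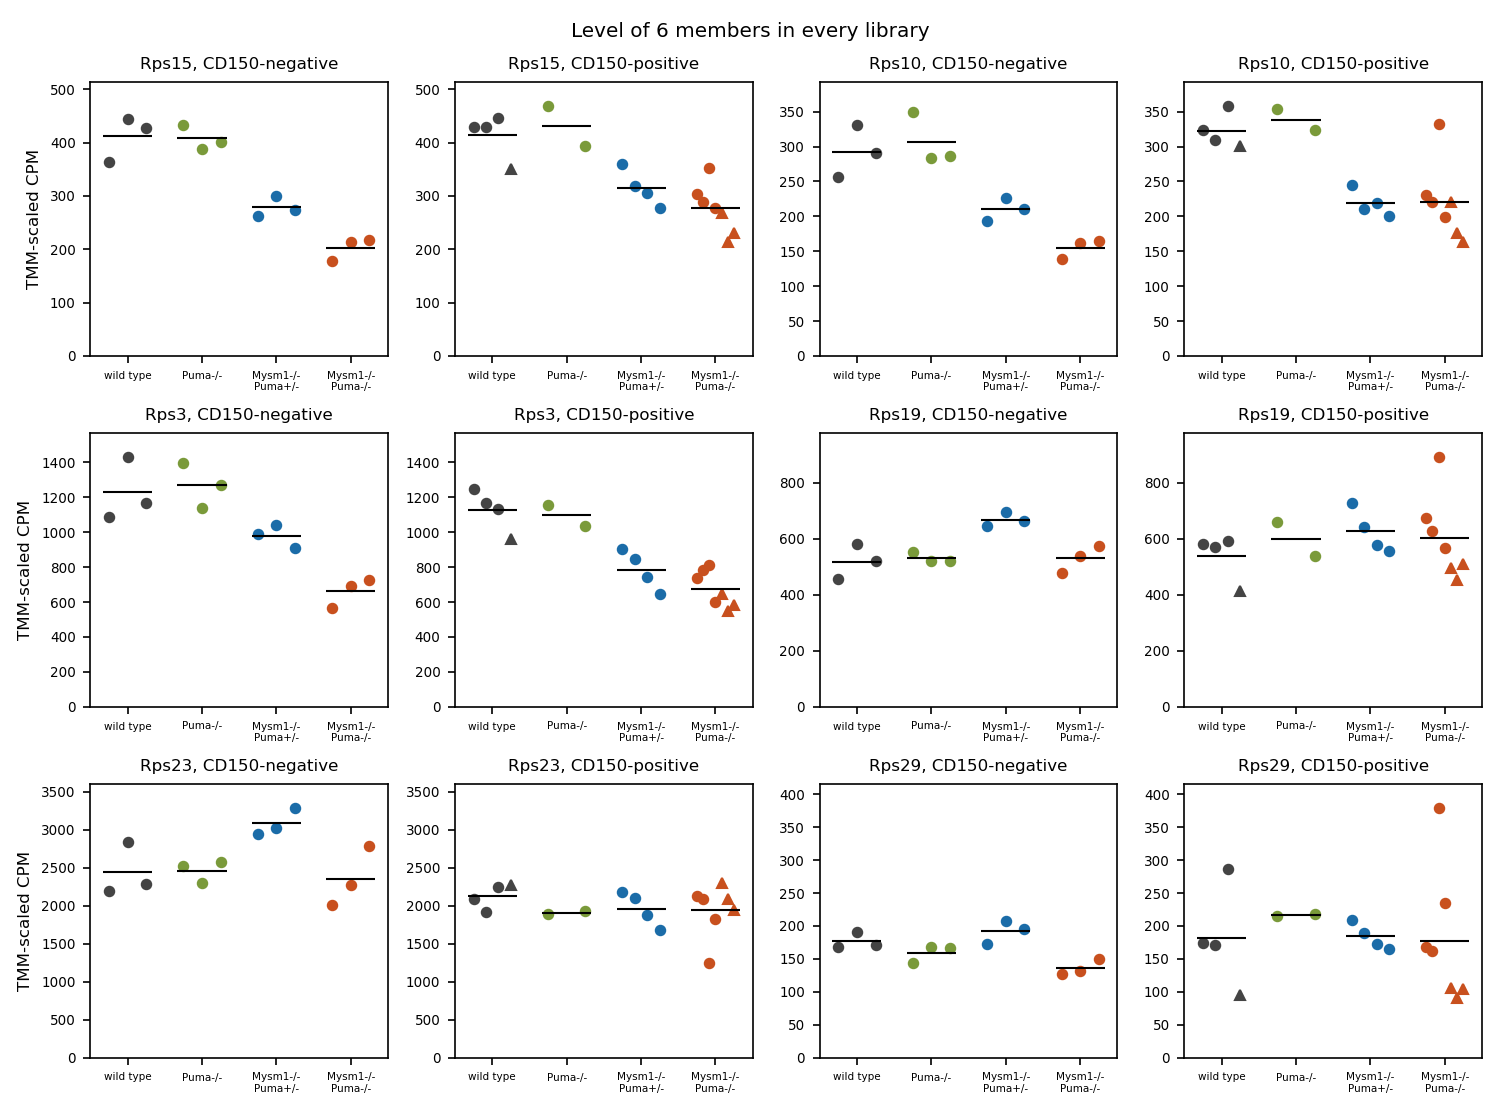
Level of 6 members in every library (TMM-scaled CPM on linear axes from 0; circles are libraries, triangles are libraries named P or W, lines are group means). Rps15, Rps10 and Rps3 are lower in libraries labelled Mysm1-/-, with CD150-positive library B5 high for Rps10, while Rps19, Rps23 and Rps29 do not follow the Mysm1 label in the same way.

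The calls fell across the regions of the subunit. Of 14 head proteins 5 fell (among them Rps15, Rps10, Rps3 and Rps18), with a list median of -0.27, and of 17 body and platform proteins 7 fell (among them Rps14, Rps7, Rps4x, Rps2, Rps24 and Rps15a), with a median of -0.38. Of 11 genes linked to Diamond-Blackfan anaemia 5 fell (among them Rps10, Rps7, Rps24 and Rps15a). The best known of them did not: Rps19 was at 554, 523 and 521 CPM in Puma-/- and 479, 539.8 and 574 in Mysm1-/-Puma-/- libraries, a log2 difference of -0.04 ± 0.14 (SE, adjusted p = 0.977). Nor did Rps28, at -0.04 (adjusted p = 0.978). Rps26 was lower but not called, at -0.38 (adjusted p = 0.342). It stood at 328, 361 and 376 CPM in Puma-/- and 244, 306 and 290 in Mysm1-/-Puma-/- libraries, with no overlap. The 12 members called were followed through the other comparisons as a set, beside the other 19. The set was chosen from these values, so its values here are a description. Without the Puma-/- library C2, 6 calls remained (among them Rps10, Rps14, Rps15, Rps18 and Rps3, adjusted p 0.00875 to 0.0351), and without the Mysm1-/-Puma-/- library B3, 7.

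Mysm1-/-Puma+/- cells were set against wild type to ask the same with 1 Puma allele left. No member was called in CD150-negative cells (0 of 31, with 0.869% of all genes called in either direction). At an unadjusted p under 0.05, 4 members were lower (4.01% of all genes) and 4 higher (5.53%). DESeq2 called 1, Rps15, a count given without the share of all genes that DESeq2 called. Yet the 2 sets lay apart: all 12 members of the set were lower, with a median log2 difference of -0.29, whereas 2 of the other 19 were lower, with a median of 0.16. The lowest were Rps15 at -0.53 ± 0.14 (adjusted p = 0.116) and Rps10 at -0.45 ± 0.15 (adjusted p = 0.261). Rps24, a body protein, was at -0.39 (adjusted p = 0.411). The highest were Rps19 at 0.39 ± 0.14 (adjusted p = 0.305) and Rps23, a protein of the decoding centre, at 0.36 ± 0.17 (adjusted p = 0.5). Rps19 stood at 456, 580.3 and 521 CPM in wild-type and 645, 695 and 665 in Mysm1-/-Puma+/- libraries, and Rps23 at 2190.3, 2843 and 2286 and 2947, 3019.8 and 3279. Neither overlapped between the groups, as was so for 4 members above wild type (7.43% of all genes) and 9 below (8.83%).

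In CD150-positive cells, Mysm1-/-Puma+/- against wild type again called no member (0 of 31, with 0.454% of all genes called). At an unadjusted p under 0.05, 6 members were lower (3.33% of all genes) and 0 higher. DESeq2 called 2, Rps7 and Rps4x, again without the share of all genes. Of the set of 12, 11 were lower, with a median of -0.39, and 12 with another library scaling (RLE), Rps2 being the member that changed sign. Among the other 19, 3 were lower, with a median of 0.16. Rps10 had the smallest p, at -0.49 ± 0.18 (adjusted p = 0.435). Its levels were 324, 309, 357 and 300.5 CPM in the 4 wild-type and 245, 211, 219 and 201 in the 4 Mysm1-/-Puma+/- libraries, with no overlap. Next came Rps4x at -0.44, Rps3 at -0.45 and Rps18 at -0.42 (adjusted p 0.485, 0.496 and 0.51). In 7 members every Mysm1-/-Puma+/- library was below every wild-type library, against 2.83% of all genes.

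CD150-positive Mysm1-/-Puma-/- cells against Puma-/- also gave no call by edgeR (0 of 31, with 0.115% of all genes called). At an unadjusted p under 0.05, 10 members were lower (4.85% of all genes) and 0 higher. DESeq2 called 7 lower, a count given without the share of all genes, so it cannot be set beside a background. All 12 of the set were lower, with a median of -0.56, and 13 of the other 19, with a median of -0.13. Without library B5 these medians were -0.62 and -0.18. With the P and W libraries left out they were -0.47 and 0.05. Rps15a was at -0.64 ± 0.20 (adjusted p = 0.387), Rps3 at -0.64 and Rps15 at -0.58 (adjusted p 0.387 and 0.415). In 10 members the groups did not overlap, all lower, against 7.24% of all genes.

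**Figure D2:**
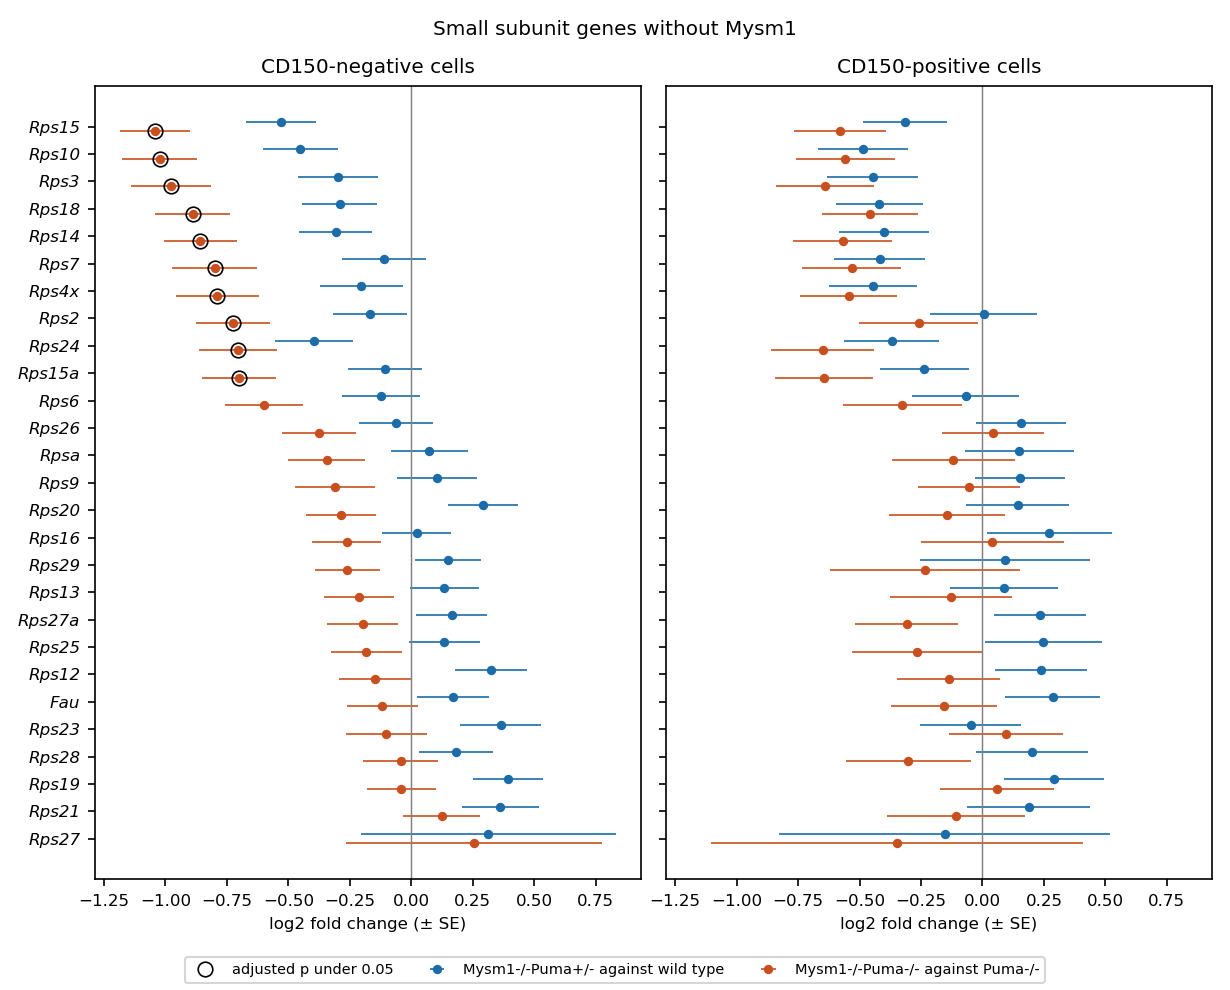
Log2 fold change (± SE) of 27 members in the 4 comparisons of libraries with and without Mysm1, ordered by the change in Mysm1-/-Puma-/- against Puma-/- CD150-negative cells; blue is Mysm1-/-Puma+/- against wild type, orange is Mysm1-/-Puma-/- against Puma-/-, and black rings mark an adjusted p under 0.05. The members ringed among CD150-negative cells lie left of most others in the remaining comparisons too, with some overlap.

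Members with the widest spread over libraries were also followed among CD150-positive cells. Rps3 stood at 1245, 1167, 1132 and 961 CPM in wild-type and 1156 and 1035 in Puma-/- libraries. Without Mysm1 it stood at 904, 845, 741 and 647 CPM with 1 Puma allele, and at 547, 649 and 811 CPM (lowest, median and highest of 7) with none. So every library labelled Mysm1-/- was below every other library for Rps3. Rps15 stood at 429, 429, 445 and 349.9 CPM in wild-type, 468 and 393 in Puma-/- and 359.6, 319, 306 and 278 in Mysm1-/-Puma+/- libraries. Its wild-type library W1, at 349.9 CPM, was the one that reached into the Mysm1-/-Puma+/- range. Rps15a stood at 759, 719, 1035 and 649 CPM in wild-type, 869 and 846 in Puma-/- and 705, 613, 649 and 588 in Mysm1-/-Puma+/- libraries, and at 415, 528 and 618 CPM (lowest, median and highest) in Mysm1-/-Puma-/- ones. Rps29 spread more within than between genotypes, at 174, 171, 287 and 95.5 CPM in wild-type, 215 and 219 in Puma-/- and 209, 189.7, 173 and 165 in Mysm1-/-Puma+/- libraries, and 91.3, 162 and 378 CPM (lowest, median and highest) in Mysm1-/-Puma-/- ones. Its lowest values came from the P and W libraries. Rps27, the least read member, was at 1.47, 1.46 and 1.24 CPM in wild-type, 1.30, 1.04 and 1.01 in Puma-/-, 1.28, 1.94 and 1.86 in Mysm1-/-Puma+/- and 1.81, 1.18 and 1.17 in Mysm1-/-Puma-/- CD150-negative libraries.

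The ordering of the members was alike in comparisons that share no library. Over the 31 members, the log2 differences of Mysm1-/-Puma+/- against wild type and of Mysm1-/-Puma-/- against Puma-/- correlated with Pearson's r 0.94 and Spearman's rho 0.93 in CD150-negative cells, and with 0.83 and 0.73 in CD150-positive cells. Between populations, the first comparison gave 0.80 and 0.74 and the second 0.74 and 0.66. These are descriptions over genes, which are not replicates, and the points share the normalization fit within a population and any length or copy effects of a gene.

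The difference between the 2 sets can be read inside each library, where scaling by depth drops out. The median log2 CPM of the 12 was above that of the other 19 in every library. It was above by 1.01 to 1.36 in the 12 libraries with Mysm1 and by 0.34 to 0.90 in the 17 libraries labelled Mysm1-/-, with no overlap. In CD150-negative cells the means were 1.19 ± 0.15 (SD, n = 3) in wild type, 1.15 ± 0.13 in Puma-/-, 0.82 ± 0.06 in Mysm1-/-Puma+/- and 0.66 ± 0.05 in Mysm1-/-Puma-/-. CD150-positive means were 1.17 ± 0.14 (n = 4), 1.08 ± 0.10 (n = 2), 0.84 ± 0.09 (n = 4) and 0.65 ± 0.15 (n = 7) in the same order. The choice of the 12 fixes the direction only between the Mysm1-/-Puma-/- and Puma-/- CD150-negative libraries. For the other 6 groups the set was chosen elsewhere, but with these data known, and no test was made.

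**Figure D3:**
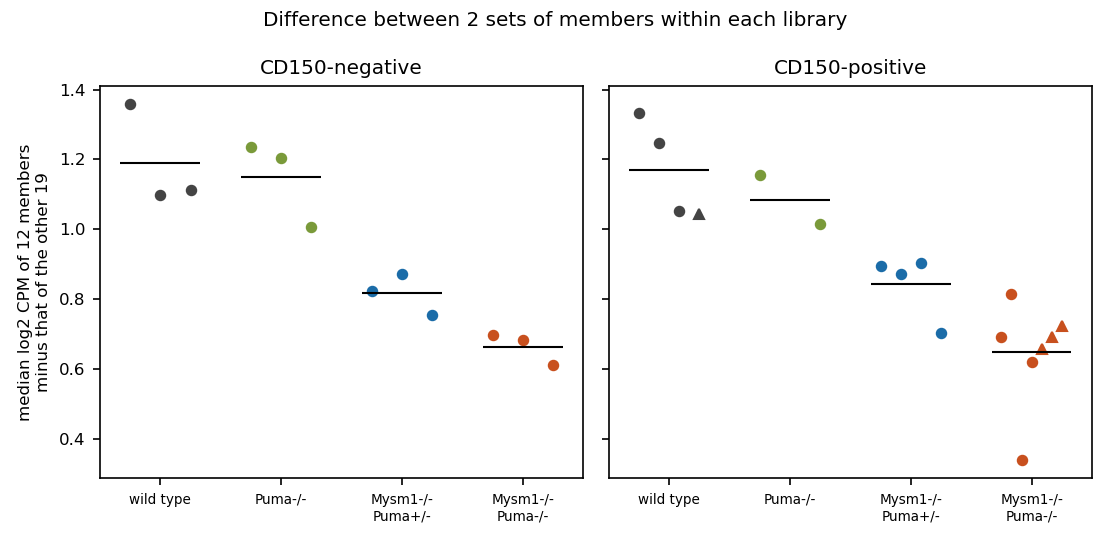
Median log2 CPM of the 12 members called between Mysm1-/-Puma-/- and Puma-/- CD150-negative cells minus that of the other 19, in each library (circles; triangles are libraries named P or W; lines are group means). All 17 libraries labelled Mysm1-/- lie between 0.34 and 0.90 and all 12 others between 1.01 and 1.36.

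Whether the change without Mysm1 differed with the Puma genotype was tested as a difference of differences. In CD150-negative cells all 31 members were lower in the pair without Puma, with a median of -0.47, but 0 were called by edgeR (0.0142% of all genes were). At an unadjusted p under 0.05 there were 17 (4.79% of all genes). DESeq2 called 2, a count given without the share of all genes. The smallest p belonged to Rps3 at -0.68 ± 0.23 (SE, adjusted p = 0.646), and Rps20 was at -0.58 and Rps7 at -0.69 (adjusted p 0.65 each). CD150-positive cells also had 0 calls, in a comparison with no gene called at all (0%), and 0 members at an unadjusted p under 0.05 (1.48% of all genes). Rps27a, Fau and Rps15a were at -0.54, -0.44 and -0.41 there (adjusted p 1.00 each). The median was -0.23, and -0.017 when the P and W libraries were left out. The difference of the wild-type comparison between the populations likewise gave 0 calls (0.00916% of all genes) and 0 members at an unadjusted p under 0.05 (3.67%). Rps23 had the smallest p, at -0.46 ± 0.24 (SE), before Rps7 at -0.35, Rps4x at -0.29 and Rps3 at -0.20 (adjusted p 1.00 each).

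Mysm1-/-Puma-/- was compared with Mysm1-/-Puma+/- to ask what the second Puma allele changes without Mysm1. In CD150-negative cells all 31 members were lower in sign, with a median of -0.48 against 0.09 over all genes. Of them 2 fell past the threshold (1.05% of all genes were called lower, 1.24% in either direction), Rps15a with a log2 change of -0.64 ± 0.15 (SE, adjusted p = 0.0488) and Rps29, a small zinc-binding protein of the head, with -0.57 ± 0.13 (adjusted p = 0.0464). At an unadjusted p under 0.05, 27 were lower (10.5% of all genes). DESeq2 called 23 lower, a count given without the share of all genes that DESeq2 called. Rps29 stood at 172, 208 and 196 CPM in Mysm1-/-Puma+/- and 128, 132 and 150.1 in Mysm1-/-Puma-/- libraries, with 168, 191 and 171 in wild type. In 26 members the 2 groups did not overlap, with Mysm1-/-Puma-/- below, against 9.48% of all genes. These calls rest on single libraries: 0 remained without any 1 of A1, A2, B1 and B3, 8 were made without A3 and 16 without B5. Calls over all genes moved as well, from 263 with all libraries to 1 without A2 and 1086 without A3.

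Both sets were lower in this comparison, with medians of -0.58 for the 12 and -0.45 for the other 19. The 12 were chosen as low in these same Mysm1-/-Puma-/- libraries, so their lower median is partly fixed by that choice. The summed level of the 31 members follows from both sets being lower. It was 28209, 29952 and 28411 CPM in the Mysm1-/-Puma+/- and 19272, 21878 and 24719.7 CPM in the Mysm1-/-Puma-/- CD150-negative libraries, which were the 3 lowest of the 12. Wild-type libraries had 27114, 34376 and 28555 CPM and Puma-/- libraries 31967, 28684 and 30732 CPM. Malat1, a nuclear RNA, was at 15366, 13764 and 8754 CPM in these Mysm1-/-Puma-/- libraries, at 4456 to 9531 CPM in the Mysm1-/-Puma+/-, at 4155 to 7499 CPM in the Puma-/- and at 3524 to 6326 CPM in the wild-type libraries, so that 1 Mysm1-/-Puma-/- library (B5) lay within the Mysm1-/-Puma+/- range. Over all 29 libraries Malat1 and the median log2 CPM of the members correlated with Pearson's r -0.54, a description over libraries of both populations and all genotypes, and the part of RNA make-up in the shift was not tested. In bulk RNA, fewer transcripts per cell and fewer cells of a type that makes them cannot be told apart.

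**Figure D4:**
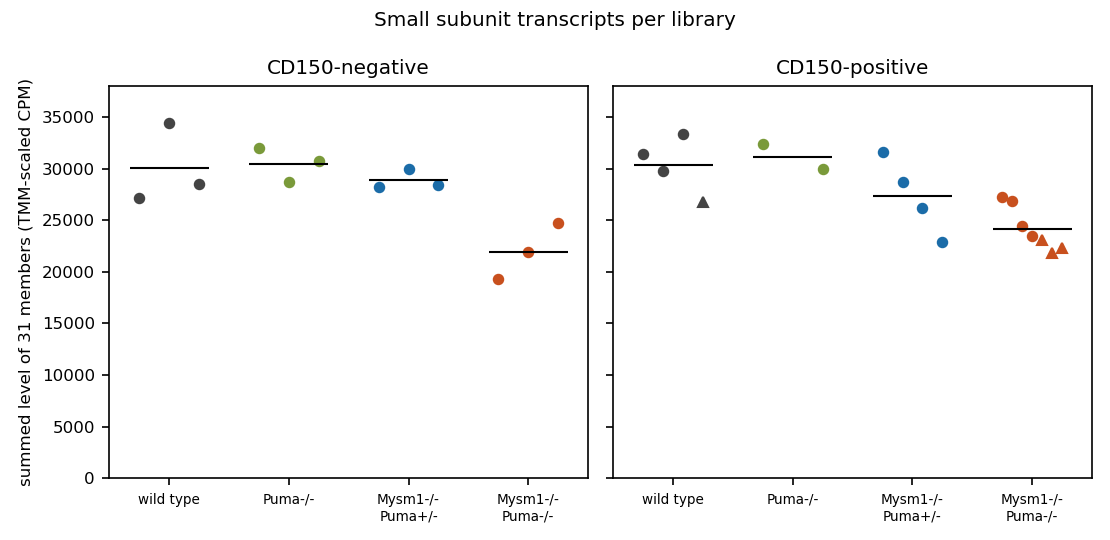
Summed level of the 31 members in each library (TMM-scaled CPM, axis from 0; circles; triangles are libraries named P or W; lines are group means). The Mysm1-/-Puma-/- CD150-negative libraries, at 19272 to 24719.7 CPM, are the lowest of their population.

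CD150-positive Mysm1-/-Puma-/- cells did not show a called shift against Mysm1-/-Puma+/- (0 of 31, 0 genes of all called, 0%). At an unadjusted p under 0.05, 2 members were lower (Rps27a and Rps15a, 2.49% of all genes), and DESeq2 called 0. All 31 were lower in sign, with a median of -0.21 and every member overlapped between the groups (0.0955% of all genes were entirely below). With the P and W libraries left out the medians were -0.11 for the set of 12 and -0.03 for the other 19. The values with the smallest p were Rps27a, made as a fusion with ubiquitin, at -0.36, Rps15a at -0.33, and Fau at -0.35 (each with an adjusted p of 1).

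Loss of Puma alone gave no called difference. Against wild type, Puma-/- cells had 0 of 31 members called in either population (0% of all genes called in both), 0 at an unadjusted p under 0.05 (1.53% and 1.22% of all genes) and 0 by DESeq2. Medians were -0.00 in CD150-negative and 0.02 in CD150-positive cells, and no member was without overlap (3.53% and 3.33% of all genes were entirely below). With 3 against 3 and 2 against 4 libraries, standard errors of 0.13 to 0.17 and 0.21 to 0.42, leaving out Rps27, set the size of a shift that could be seen. The smallest p values in CD150-negative cells belonged to Rps21 at -0.21 ± 0.16, Rps29 at -0.16, Rps25 at -0.16 and Rps28 at -0.16. In CD150-positive cells they belonged to Rps27a at 0.19 ± 0.23, Rps23 at -0.20, Rps25 at 0.23 and Rps28 at 0.19. Rps10 and Rps19 were at 0.05 and 0.02 in CD150-negative Puma-/- cells.

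CD150-positive and CD150-negative cells of the same genotype differed in few called members. In wild type 0 of 31 members were called (7.15% of all genes were), 1 had an unadjusted p under 0.05 (Rps27a, 0.33; 8.24% of all genes were higher at this level), and the median was 0.04. Next by p were Rps23 at -0.20, Rps15a at 0.13 and Rps10 at 0.14. In Mysm1-/-Puma+/- cells 1 member was called, against 3.24% of all genes called lower and 5.9% in either direction: Rps23 was lower in CD150-positive cells, with a log2 difference of -0.65 ± 0.17 (SE, adjusted p = 0.0134). It stood at 2178, 2096, 1882 and 1688 CPM there and at 2947, 3019.8 and 3279 CPM in CD150-negative libraries, with no overlap. In all 5 members lay entirely below (8.58% of all genes) and 1 above (Rps27a, 6.31%). The call was lost without the CD150-negative library A3 or the CD150-positive libraries A2 or A4. In Mysm1-/-Puma-/- cells Rps15 and Rps10 were higher in CD150-positive cells, by 0.45 ± 0.13 (adjusted p = 0.0248) and 0.51 ± 0.15 (adjusted p = 0.0246), against 5.16% of all genes called higher and 12.3% in either direction. At an unadjusted p under 0.05, 9 were higher (10.6% of all genes). The 7 CD150-positive libraries had 213, 278 and 353 CPM of Rps15 and 163, 221 and 333 CPM of Rps10 as lowest, median and highest, and both overlapped with the CD150-negative libraries. Both calls were lost without the CD150-negative library B1 or B3, and 4 members were called without P2.

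Lists of related genes were read from the same fits. Of 46 tested genes of the large subunit, 21 fell in Mysm1-/-Puma-/- against Puma-/- CD150-negative cells, with a median of -0.66. Of all genes 0.935% were called lower there. Rpl36a was the lowest at -1.23 ± 0.16 (SE, adjusted p = 0.000464), followed by Rpl37a at -1.12, Rpl29 at -1.07, Rpl13 at -1.03, Rpl8 at -1.03 and Rpl7 at -0.86. None of 48 genes for assembly of the small subunit, such as ribosome biogenesis factors of the nucleolus, was called there. At an unadjusted p under 0.05, 4 were lower (5.99% of all genes), and the median was -0.19. Of 20 other genes whose mRNAs begin with a terminal oligopyrimidine tract or govern its translation, none was called, 1 was lower and 1 higher at an unadjusted p under 0.05, and the median was -0.06. Among CD150-positive cells Rpl36a was the only one of these 3 lists to be called in the same comparison, at -1.19 ± 0.18 (adjusted p = 0.00475). The large subunit had a median of -0.36 and the assembly list 0.15. In Mysm1-/-Puma+/- against wild type, 3 large-subunit genes were called in CD150-negative cells (Rpl36a, Rpl29 and Rpl37a, all lower) and 1 in CD150-positive cells (Rpl36a). Of all genes 0.869% and 0.454% were called there in either direction. In Mysm1-/-Puma-/- against Mysm1-/-Puma+/- CD150-negative cells the large subunit had a median of -0.50 with 3 lower calls (Rpl37a, Rpl41 and Rpl8), and the assembly list a median of -0.27 with none.

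Rps27l, a p53-responsive paralogue of Rps27, was read beside the members though it is none of them. It was at 20.5, 23.0 and 17.5 CPM in wild-type and 52.6, 49.3 and 38.8 in Mysm1-/-Puma+/- CD150-negative libraries, a log2 rise of 1.23 ± 0.19 (SE, adjusted p = 0.00191). In Mysm1-/-Puma-/- libraries it was at 26.7, 25.9 and 30.7 CPM, a log2 difference from Mysm1-/-Puma+/- of -0.84 (adjusted p = 0.0375). Rps3a1, named although its symbol leaves it out, behaved like the 12 in Mysm1-/-Puma-/- against Puma-/- CD150-negative cells, at -0.80 ± 0.17 (adjusted p = 0.0195).

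How surely a read belongs to a member depends on the copies in the genome, since ribosomal protein genes have spawned many processed pseudogenes. In the mouse genome build NCBIM37 (mm9), the build in the submitters' processing notes, the coding parts of the members matched 752 further places over 80% of their length, and 197 of these at 95% identity or more. Of the 31 members 29 had at least 1 such copy. Rps2 had 25 and Rps12 had 22, whereas Rps3 had none. Rps3 lies on chromosome 7 at chr7:106626406-106632248 (minus strand) and was among the 12. So the largest falls included a gene without a near-identical copy. The 12 had a median of 6 such copies and the other 19 a median of 5, and over the members the number of copies and the log2 change in Mysm1-/-Puma-/- against Puma-/- CD150-negative cells had a Spearman's rho of 0.08. The 12 differed more in annotated exon (median 808 against 615 bases) and in level (median 870 against 452 CPM). With the same log2 change, rho was -0.15 for length and -0.26 for CPM per kb. The part of length and level was not tested. Small nucleolar RNA genes sit inside 9 members, 3 of the 12 and 6 of the 19. Rps18, Rps2, Rps25, Rps27a and Rps28 overlap a gene on the opposite strand that is also in the count table (Vps52, Snhg9, Ccdc84, 1700034F02Rik and Kank3), and the strand setting of the counting is not given in the sources used here. How reads that match several places were counted is likewise not given, so values of members with near-identical copies are uncertain to that extent.

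Transcription of ribosomal protein genes is known to start within a stretch of pyrimidines, which gives their mRNAs the oligopyrimidine start that growth signals act on. RefSeq start sites (build GRCm38.p6, whose coordinates cannot be set beside those of the counts) were matched for 23 members. Of them 18 (78.3%) had a run of at least 8 bases of C or T on the coding strand within 50 bases of a start, against 35.7% of 32851 promoters. A member was counted if any of its starts had the run, whereas the 35.7% counts single promoters. Members with several starts are favoured by this, so the shares are not strictly alike. In the windows below, chosen to show both sets, the capitals mark the run, which need not hold the annotated start. It began after that start in Rps15, Rps7 and Rps12, at positions 26, 23 and 9. In Rps10, Rps18 and Fau it began at -3, -2 and -3.

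Rps15, chr10:80292446-80292475, plus strand, in the set of 12: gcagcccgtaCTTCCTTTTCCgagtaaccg
Rps10, chr17:27635227-27635256, minus strand, in the set of 12: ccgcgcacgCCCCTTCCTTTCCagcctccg
Rps18, chr17:33955648-33955677, minus strand, in the set of 12: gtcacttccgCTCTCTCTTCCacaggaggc
Rps7, chr12:28635911-28635940, minus strand, in the set of 12: ctgtccccaCCTCTTTTCTTCCgccacccg
Fau, chr19:6057937-6057966, plus strand, not in the set: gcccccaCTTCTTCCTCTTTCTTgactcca
Rps12, chr10:23787182-23787211, minus strand, not in the set: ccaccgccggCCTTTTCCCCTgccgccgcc

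The run did not set the 2 sets apart: 7 of 9 matched members of the 12 held it and 11 of 14 of the others. CCGGAAG, the core of ETS factor sites, was found on either strand of the 300-base promoter in 9 of 23 members (39.1%) against 8.86% of all promoters. It was in 4 of 9 of the set and 5 of 14 of the others. Its reverse complement CTTCCGG can overlap the pyrimidine run. AAGATGGC, known from YY1 sites, was in 3 of 23 (13.0%) against 2.75%, and GGGCGG, the SP1 core, in 12 of 23 (52.2%) against 35.7%. For these motifs too, members were counted by any start and the background by single promoters. The matches are a description of these letters only.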

How the data were processed

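Total RNA of sorted cells was depleted of ribosomal RNA, made into stranded low-input libraries and read as paired ends, per the labels' protocols. Whole-number read counts per gene were deposited by the authors, one file per library. The submitters' processing notes name FastQC, Trimmomatic 0.33, TopHat2 2.0.9, Bowtie 1.0.0, featureCounts, edgeR, R 3.4.2 and the mouse build mm9. The annotation, the strand setting and how multiply matching reads were counted are not given in the sources used here. A matrix of CPM values was also deposited by the authors and served only as an alternative.

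Members and gene lists were chosen with earlier results of these data known. Per comparison, the members called were named, or the 4 with the smallest p where none was; library values are given for members called in several comparisons, those with the widest spread, and Diamond-Blackfan genes with the smallest p. Rps3a1 and single members outside this rule, such as Rps19, Rps26 and Rps28, were named after their values were seen. Counts were tested with edgeR 4.0.16 in R 4.3.3 (filterByExpr, TMM, quasi-likelihood F test, Benjamini-Hochberg over all genes, adjusted p under 0.05). CD150-negative (12 libraries, 21168 genes) and CD150-positive libraries (17, 20944 genes) were fitted separately, and comparisons between populations in a joint fit (21830 genes). SE is the log2 change divided by the square root of F. Levels come from the joint scaling. P-values measure the spread between libraries, which may be technical. No 2 libraries of a group agreed within counting noise (smallest chi-square per degree of freedom 20.7). Alternatives were RLE scaling, DESeq2 1.42.0, no filter, a replicate block, a background covariate, limma-trend (limma 3.58.1) on log2(CPM + 1), and leaving out libraries. For DESeq2, limma-trend, the covariate and the block, counts of members called are given without the share of all genes called. Copies of the coding part (a query chosen after seeing the data) were sought with blastn 2.17.0, and promoters came from RefSeq (GRCm38.p6). The scripts were tested on simulated data. Protein sequences were not used here. Some members are counted in the totals but not reported by name here.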

Additional observations from a re-analysis of the deposited data

Results flagged for a closer look

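Of 87 groups of values examined for a single library far from the others, 9 stood out, and chance alone flags about 1 in 20. In CD150-positive Mysm1-/-Puma-/- cells, library B5 was far above the other 6 for Rps10 (332.741 CPM, others 163 to 230.4) and Rps16 (669.298, others 269 to 419). It was far below them for Rpsa (2456.93 CPM, others 3624 to 4402) and for the gap between the 12 members and the other 19 (0.337129, others 0.62 to 0.82 on the log2 scale).

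In CD150-positive wild-type cells, library W1 was far below the other 3 for Rps18 (680.608 CPM, others 791 to 808), Rps19 (413.324, others 572 to 591) and Rps2 (676.827, others 981 to 1010.2). Library D3-4 was far above them for Rps26 (508.705 CPM, others 307 to 325). In Mysm1-/-Puma+/- cells, the CD150-positive library A4 had a gap of 0.701944, against 0.87 to 0.90 in the others.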

How the results depend on the processing

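Each member called kept its sign under every alternative that gave it a value. In 6 comparisons the median over members lay near 0 and changed sign when single libraries were left out, moving by less than the spread between replicates. For Mysm1-/-Puma+/- against wild type CD150-positive cells (0.089) the lowest value was -0.018, without W1. For Puma-/- against wild type it was -0.096 in CD150-positive cells (0.020), without C1-4, and the highest was 0.13 in CD150-negative cells (-0.0034), without D3. Between populations it reached -0.036 in wild type (0.038) without D3-4 and 0.015 in Mysm1-/-Puma+/- cells (-0.047) without A4, and the gap between CD150-positive and CD150-negative cells in the response to Mysm1 loss (-0.092) reached 0.033 without A4. In Mysm1-/-Puma-/- against Puma-/- CD150-negative cells the members not called had a median of -0.21, and 0.035 with limma-trend. The differences with Puma genotype were added after seeing the data. The results rated were counts of calls, medians and called members, and a rating of the same allowed small changes in counts and medians. With RLE scaling all 59 were rated the same, and without a filter 58 of 59. RLE scaling called 3 members (Rps29, Rps2 and Rps15a) in Mysm1-/-Puma-/- against Mysm1-/-Puma+/- CD150-negative cells, where the main fit called 2. DESeq2 called more members: 1 and 2 in Mysm1-/-Puma+/- against wild type (CD150-negative, then CD150-positive), 23 in Mysm1-/-Puma-/- against Mysm1-/-Puma+/- CD150-negative cells, 7 in Mysm1-/-Puma-/- against Puma-/- CD150-positive cells, 5 between populations in Mysm1-/-Puma-/- cells, and 2 for the difference with Puma genotype in CD150-negative cells. With olfactory and related receptor reads as a covariate, Mysm1-/-Puma+/- against wild type CD150-negative cells gave 2, Mysm1-/-Puma-/- against Mysm1-/-Puma+/- CD150-negative cells (the second Puma allele) 0, and the populations of Mysm1-/-Puma-/- cells 7. With limma-trend on the deposited CPM these gave 2, 2 (median -0.27) and 4, and the median was -0.25 for the difference with Puma genotype. Without the P and W libraries the populations of Mysm1-/-Puma-/- cells gave 7 calls, the CD150-positive comparison of Mysm1-/-Puma-/- with Puma-/- a median of -0.082, and the CD150-positive difference with Puma genotype a median of -0.017.

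Whether library numbers pair the samples was not settled. Same-numbered libraries had correlations of -0.476 to 0.460, 7 of 17 over 0.1. Libraries of the same name in the 2 populations had correlations of -0.188 to 0.645, 4 of 7 over 0.1. With a replicate block by number, calls were 0 for the second Puma allele, 1 for Mysm1-/-Puma-/- against Puma-/- CD150-negative cells, 0 between populations in Mysm1-/-Puma+/- cells, and 16 in Mysm1-/-Puma-/- cells with a median of 0.41. With a replicate block by library name the last 2 were 2 and 0, with a median of 0.45. The block could not be fitted for CD150-positive Puma-/- libraries.

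Leaving out one library at a time gave 0 to 16 calls for the second Puma allele, 6 to 13 for Mysm1-/-Puma-/- against Puma-/- CD150-negative cells, 0 to 1 between populations in Mysm1-/-Puma+/- cells, and 0 to 4 in Mysm1-/-Puma-/- cells, where the median ran from 0.15 to 0.40. Over all genes the calls ran from 1 to 1086, 148 to 336, 935 to 1107 and 1377 to 3088, in the same order. The cause of these changes was not tested. Rps27 had 6 to 77 reads per library and 5 genomic copies at 95% identity or more, and what limits its count was not tested.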
